A study of Homo sapiens with 18 samples.

Results

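The genes described here were the well expressed members of the human ZNF family, named ZNF and a number, in 2 myeloma lines exposed to an inducer of ferroptosis. Of 479 such symbols in a table of 43735 genes, 3 were set aside by name, and the genes with a median of at least 300 raw read counts over the 6 untreated libraries were kept, which gave 125 genes. The genes were thus selected on their untreated levels, which are a description and no result, and a gene that was by chance high in them was favoured to look lower after treatment. The levels just inside the threshold were a median of 300 counts for ZNF561, 304.5 for ZNF721 and 306 for ZNF277, and those just outside were 295 for ZNF765, 292.5 for ZNF628 and 292 for ZNF428. The remaining symbols fell short of the threshold: 252 of them could still be tested and 99 could not.

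The libraries came from MM1S, a glucocorticoid-sensitive human multiple myeloma line, and from MM1R, its glucocorticoid-resistant counterpart. Each line gave 3 libraries per state: untreated, exposed to RSL3 (5 µM, 3 h), or exposed to ferrostatin-1 (Fer-1, 2 µM) for 2 h ahead of the same RSL3 dose and time. RSL3 is an inhibitor of GPX4, which clears peroxidised lipids, whereas Fer-1 stops lipids from becoming peroxidised. Replicates 1, 2 and 3 were cells of passages 4, 6 and 7 in MM1R and of passages 16, 22 and 23 in MM1S, so each passage gave 1 library of every treatment. None of the 18 libraries came from cells given Fer-1 alone. An effect of Fer-1 by itself therefore cannot be told apart from its effect on the RSL3 response.

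ZNF genes encode proteins with zinc fingers, small folds held by a zinc ion, which in most of the family are of the C2H2 type and lie in long arrays that read DNA. The largest branch also carries a KRAB domain, which recruits the corepressor TRIM28 (KAP1) and with it the methyltransferase SETDB1, HP1 proteins and the NuRD complex, and is best known for silencing transposable elements. Other ZNF proteins activate promoters, belong to chromatin complexes, or bind RNA, ribosomes or microtubules. A scan of the annotated proteins for a KRAB domain matched 51 of the 125 genes and left 74 without a match. A divergent KRAB domain can escape such a scan, so a gene without a match, such as ZNF496, may still carry one. The matched genes had a median of 11 C2H2 fingers and the others of 5.5, and 3 of the 125 genes had no finger that the scan recognised.

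The 250 bases before the start site are shown for 3 KRAB-matched genes with the largest rises after RSL3 or after Fer-1 and RSL3, namely ZNF184, ZNF215 and ZNF227, and for 2 genes without a match that fell after RSL3, ZNF143 and ZNF598. The sequences are from RefSeq (GRCh38.p14) and run 5′ to 3′ on the strand of the gene. Capitals mark a match, on either strand, to 1 of 6 stress-related motifs. These are the antioxidant response element core TGACNNNGC, the heat shock element core GAANNTTC, the ATF4 composite element TGATGCAA, the AP-1 site TGANTCA, the cAMP response element TGACGTCA and the metal response element core TGCACNC. The windows are chr6:27473106-27473355 (minus strand) for ZNF184, chr11:6926176-6926425 (plus) for ZNF215, chr19:44212282-44212531 (plus) for ZNF227, chr11:9460762-9461011 (plus) for ZNF143 and chr16:2009822-2010071 (minus) for ZNF598.
ZNF184: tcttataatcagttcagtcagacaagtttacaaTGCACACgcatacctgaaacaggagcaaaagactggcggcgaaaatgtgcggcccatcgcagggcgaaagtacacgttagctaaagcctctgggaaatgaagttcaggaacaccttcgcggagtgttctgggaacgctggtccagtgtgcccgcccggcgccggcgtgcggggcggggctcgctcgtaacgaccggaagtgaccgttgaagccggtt
ZNF215: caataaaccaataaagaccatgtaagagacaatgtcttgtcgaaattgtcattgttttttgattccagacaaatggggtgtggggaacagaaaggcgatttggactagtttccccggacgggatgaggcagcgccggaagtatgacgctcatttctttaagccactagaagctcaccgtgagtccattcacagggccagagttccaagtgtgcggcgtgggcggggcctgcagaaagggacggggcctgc
ZNF227: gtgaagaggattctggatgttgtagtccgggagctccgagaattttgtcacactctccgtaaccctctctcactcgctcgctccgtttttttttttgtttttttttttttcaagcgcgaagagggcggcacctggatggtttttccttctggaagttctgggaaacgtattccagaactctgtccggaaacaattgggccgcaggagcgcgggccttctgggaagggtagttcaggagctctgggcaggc
ZNF143: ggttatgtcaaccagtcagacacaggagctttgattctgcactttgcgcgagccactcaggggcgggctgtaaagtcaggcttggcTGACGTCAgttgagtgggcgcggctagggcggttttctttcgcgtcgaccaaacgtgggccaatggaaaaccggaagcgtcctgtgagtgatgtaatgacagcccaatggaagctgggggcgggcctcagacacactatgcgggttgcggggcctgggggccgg
ZNF598: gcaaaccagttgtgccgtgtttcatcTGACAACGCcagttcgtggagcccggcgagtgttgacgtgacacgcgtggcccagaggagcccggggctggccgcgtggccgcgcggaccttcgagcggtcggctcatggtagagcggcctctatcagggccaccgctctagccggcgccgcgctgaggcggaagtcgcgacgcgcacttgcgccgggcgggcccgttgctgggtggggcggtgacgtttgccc

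ZNF184 held a metal response element core that starts 217 bases before the start site, ZNF143 a cAMP response element at 164 bases and ZNF598 an antioxidant response element core at 224 bases. ZNF215 and ZNF227 held none of the 6 motifs in these letters. A RefSeq window of 300 bases, 250 before and 50 after the first listed start, was found for 110 of the 125 genes. The antioxidant response element core was in 16.3% of 43 KRAB-matched genes, in 14.9% of 67 genes without a match and in 13.6% of 27305 promoters of all genes. The metal response element core was in 18.6%, 11.9% and 11.9% of these sets, the heat shock element core in 4.65%, 4.48% and 6.87%, and the AP-1 site in 6.98%, 2.99% and 7.76%. The ATF4 element was in 0 of the 110 windows and in 0.923% of all promoters. The cAMP response element was in 6.98% and 10.4% of the 2 sets and in 1.98% of all promoters. Base composition differed between these sets too: the median window of the KRAB-matched genes held 20 CG dinucleotides and that of the others 28, against 14 for all promoters. A match is a description of letters, not a site.

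Total counts per library were 17635438 to 19368343, of which the 125 genes took 0.475% to 0.623%. All 9 plasma cell markers examined were expressed, and of 10 markers of other blood cells 7 stayed under 1 CPM (counts scaled to library size) in every library, with a sum over the list of 13.4 to 28.1 CPM. Among them CD14, LYZ, CSF1R, MS4A1, PAX5, CD3D and PPBP were at or near 0. CD3E (3.26 to 11.5 CPM), HBB (3.40 to 12.7 CPM) and NCAM1 (2.57 to 6.61 CPM) were detected at low levels in every library. The glucocorticoid receptor gene NR3C1, which tells the lines apart, was at 13.8 to 22.3 CPM in 8 MM1R libraries and at 89.9 to 392 CPM in MM1S, but at 50.2 CPM in replicate 2 of MM1R with Fer-1 and RSL3. Over 10 genes that separate the untreated lines by at least 4-fold, that library stood at a median of 45.2% of the MM1S level. The other MM1R libraries stood at -0.59% to 2.04%, so the library at 45.2% goes against its label. The main counts and medians that rest on that library are given with and without it. Other values include it unless stated. These are bulk libraries, so fewer cells that express a gene and less RNA per cell cannot be told apart.

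Without treatment the 125 genes spanned a mean of 15.5 to 358 CPM over the 6 libraries, with a median of 34.1. The KRAB-matched genes were expressed lower, at a median of 20.6 CPM (15.7 to 96.5), than the genes without a match, at 45.9 CPM (15.5 to 358). Per kilobase of transcript, the scale on which genes can be compared, the medians were 5.74 and 11.5 CPM. ZNF207 (BuGZ), which binds microtubules and the checkpoint protein BUB3, was the highest, at 358 CPM and 168 CPM per kilobase. It was followed in CPM by ZNF217, an oncogene product of corepressor complexes, by ZNF740, by ZNF664 and by ZNF598, a ubiquitin ligase that recognises collided ribosomes. Chromosome 19, home of the large KRAB clusters, held 31 of the 125 genes and 18 of the KRAB-matched ones, and chromosome 7 held 12 of the KRAB-matched genes and 3 of the others. The KRAB-matched genes were poorer in G and C, with a median transcript content of 44.9% against 49.7% for the others and 47.8% for all tested genes.

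RSL3 changed a modest number of these genes within each line. In MM1R, 9 of 125 were called at a false discovery rate (FDR) under 0.05 in edgeR's quasi-likelihood fit, adjusted by Benjamini-Hochberg over 14281 genes, against 3.36% of all tested genes (2% higher and 1.36% lower). Of these ZNF184, ZNF215, ZNF496 and ZNF3 rose, and ZNF703, ZNF692, ZNF232, ZNF865 and ZNF598 fell. In MM1S, 6 were called, against 3.67% of all genes (2.5% higher and 1.17% lower): ZNF184, ZNF215, ZNF7, ZNF622 and ZNF3 rose and ZNF703 fell. With the passage as a block the counts were 23 (13.1% of all genes) and 21 (13.3%). Without 1 library at a time the MM1R count lay between 2 and 20. It was 2 to 4 without any of the 3 untreated MM1R libraries or replicate 1 or 3 of MM1R with RSL3, and 20 without replicate 1 of MM1S with RSL3. The MM1S count lay between 1 and 10, reaching 1 without replicate 1 or 3 of the untreated MM1S libraries and 10 without replicate 3 of MM1S with RSL3. With only the 2 groups compared in the fit it was 0. For these and later fits without 1 library the share of all tested genes called is not given, unless stated.

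Averaged over both lines, 34 of the 125 genes were called, 15 higher and 19 lower, against 15.5% of all tested genes (8.7% higher and 6.81% lower), and 52 with the passage as a block, where 30.4% of all genes were called. The direction went with the KRAB match. Of the 51 KRAB-matched genes 11 rose and 3 fell, while of the 74 genes without a match 4 rose and 16 fell. The median log2 fold changes were 0.07 and -0.05, and that of all tested genes was 0.00. With the block the counts were 16 and 4 for the KRAB-matched genes and 8 and 24 for the others, beside 14.9% higher and 15.5% lower of all genes. The count of 34 went down to 19 without replicate 1 of MM1R with RSL3, to 20 without replicate 3 of that group, and to 22 without replicate 2 of untreated MM1R or replicate 1 of untreated MM1S. Of the 34 genes 17 lost the call in at least 1 of the 18 fits without 1 library. The difference between the classes was not tested, since the classes share libraries and were formed with results of these data known.

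ZNF184 (hg19 chr6:27418522-27440897), a KRAB gene with 20 fingers whose promoter is shown above, had the largest rise. In MM1R its libraries were at 17.9, 18.9 and 17.6 CPM without treatment and at 37.2, 27.7 and 47.1 CPM with RSL3. In MM1S they were at 17.1, 22.8 and 20.3 CPM and at 58.5, 28.6 and 30.3 CPM. Treated and untreated libraries did not overlap in either line, and replicate 1 of MM1S with RSL3 was the highest of all. The log2 fold change was 1.00 ± 0.17 (SE, lines averaged, n = 3 per group, edgeR FDR = 9.33e-04). Pre-treatment with Fer-1 left it at 33.5, 39.0 and 46.9 CPM in MM1R and at 38.5, 38.8 and 38.2 CPM in MM1S.

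ZNF215 (hg19 chr11:6947635-7022235) lies in the imprinted region of 11p15, carries a KRAB match and only 4 fingers, and overlaps ZNF214 on the other strand, so reads of the pair cannot be told apart without strand. It went from 50.2, 47.8 and 39.8 CPM to 98.2, 76.5 and 98.0 CPM in MM1R, and from 49.0, 55.0 and 47.9 CPM to 141, 78.0 and 74.5 CPM in MM1S. No treated library overlapped an untreated one, and the log2 fold change was 0.97 ± 0.14 (SE, edgeR FDR = 2.94e-04). With Fer-1 and RSL3 it stood between both states in MM1R, at 75.8, 69.4 and 66.0 CPM. In MM1S it was at 63.5, 75.9 and 73.8 CPM, above the untreated libraries but overlapping those with RSL3. The log2 differences to the RSL3 library of the same passage were -0.37, -0.14 and -0.57 in MM1R. In MM1S they were -1.14, -0.04 and -0.01. The difference to RSL3 alone, averaged over the lines, was -0.41 ± 0.13 (SE) and did not pass (edgeR FDR = 0.215, or 0.115 with the passage as a block).

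ZNF267, another KRAB gene, rose by 0.74 ± 0.21 on the log2 scale (SE, edgeR FDR = 0.0259), but with more scatter. Its untreated levels were 46.2, 41.5 and 30.4 CPM in MM1R and 60.2, 56.6 and 59.3 CPM in MM1S, and with RSL3 they were 69.7, 44.3 and 70.5 CPM and 181, 63.7 and 72.4 CPM. The groups overlapped in MM1R, and the call was lost in 4 of the 18 fits that leave out 1 library. ZNF621 rose by 0.44 ± 0.11, and the KRAB genes ZNF195 (0.40), ZNF227 (0.39), ZNF7 (0.37), ZNF92 (0.37), ZNF3 (0.33), ZNF678 (0.29) and ZNF41 (0.25), named after their values were seen, complete the 11. Of these ZNF41 lost the call in 15 of the 18 fits, ZNF227 in 9 and ZNF92 in 7. ZNF3 had the least scatter of these, with 50.3 to 53.5 CPM untreated and 63.4 to 66.6 CPM with RSL3 in MM1R, and 47.6 to 52.1 CPM and 58.8 to 66.2 CPM in MM1S.

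**Figure D1:**
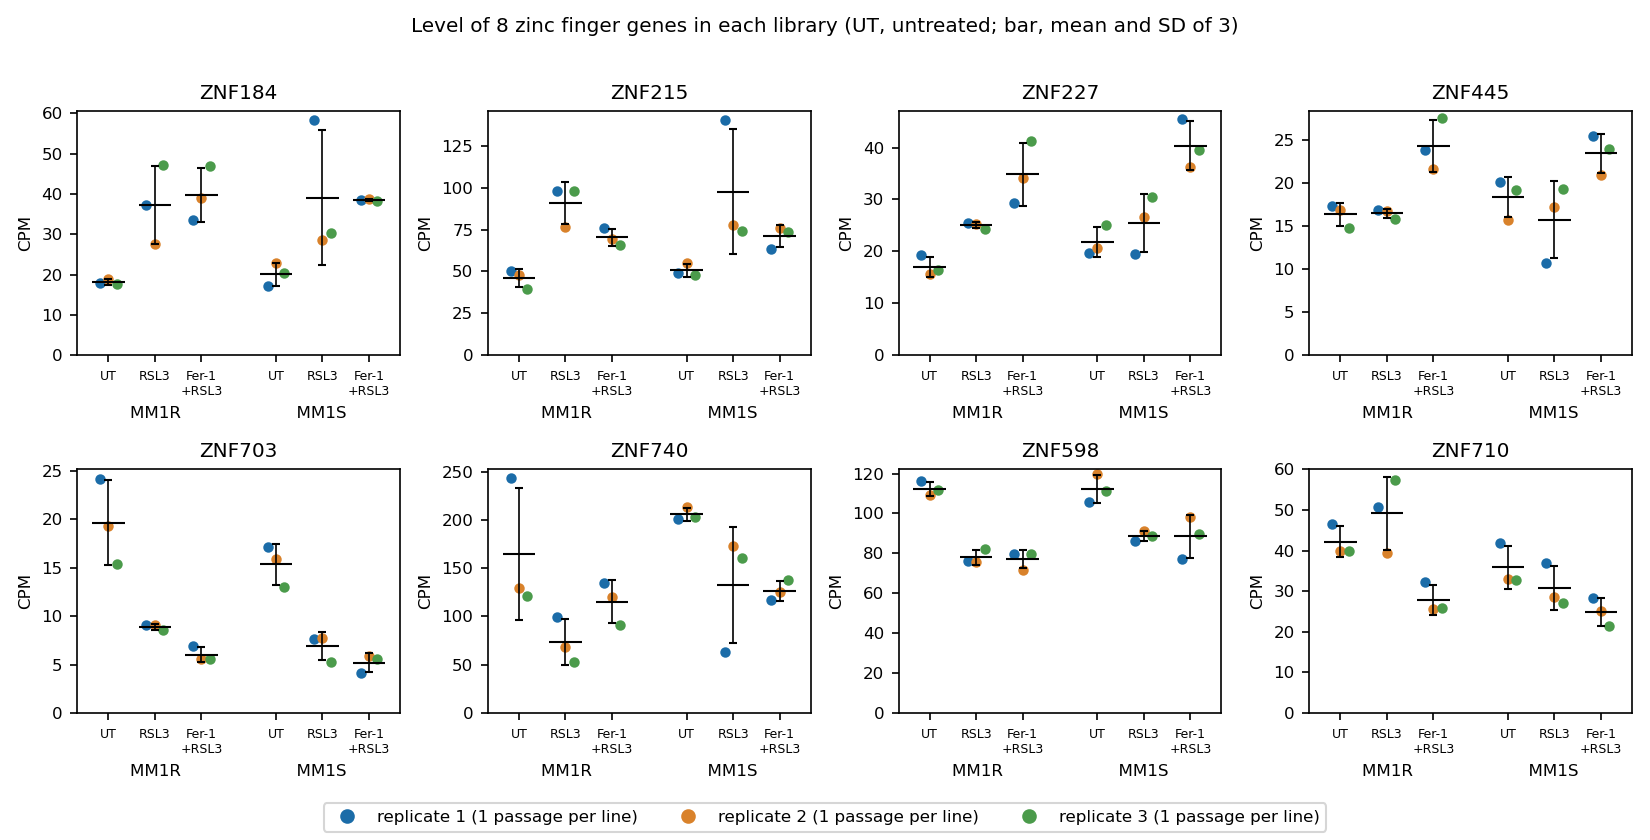
Levels in CPM (vertical axes, starting at 0) of 8 genes in each of the 18 libraries, by line and treatment, with points colored by replicate and black bars for the mean and SD of 3 libraries. ZNF184 and ZNF215 were higher in every RSL3 library than in any untreated library of the line, ZNF703 and ZNF598 were lower, and ZNF227 and ZNF445 were highest with Fer-1 and RSL3.

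The 4 genes without a KRAB match that rose have varied roles. ZNF496 (NIZP1), which binds the methyltransferase NSD1, rose by 0.45 ± 0.09 (SE, edgeR FDR = 0.00268), with untreated levels of 28.2 to 31.5 CPM in MM1R and 26.6 to 31.7 CPM in MM1S and RSL3 levels of 39.8 to 48.5 CPM and 36.8 to 40.2 CPM. ZNF622, a factor of cytoplasmic maturation of the large ribosomal subunit, rose by 0.42 ± 0.08 (FDR = 0.00301), and its RSL3 libraries, at 39.0 to 42.6 CPM in MM1R and 36.7 to 51.9 CPM in MM1S, lay above all untreated ones, at 29.1 to 34.1 CPM. ZNF644, which belongs to the G9a and GLP histone methyltransferase complex, rose by 0.42 ± 0.11 (FDR = 0.019, or 0.0516 without replicate 1 of MM1R with RSL3). ZNF770 rose by 0.43 ± 0.09 (FDR = 0.00365), from 72.0 to 96.1 CPM untreated to 105 to 124 CPM with RSL3 over both lines.

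The largest fall was that of ZNF703 (hg19 chr8:37553300-37557537), a transcriptional repressor of the NLZ family known from breast cancer amplifications. It was at 24.2, 19.3 and 15.4 CPM in untreated MM1R and at 9.03, 9.04 and 8.54 CPM with RSL3. In MM1S it was at 17.1, 15.9 and 12.9 CPM and at 7.62, 7.78 and 5.23 CPM. The log2 fold change was -1.15 ± 0.14 (SE, edgeR FDR = 1.16e-04), it was called in each line by itself, and it kept its call in the average without any 1 of the 18 libraries. Its untreated level was close to the threshold of the rule.

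ZNF740, one of the most abundant members, fell by 0.90 ± 0.23 on the log2 scale (SE, edgeR FDR = 0.0136), with scatter in both states. It was at 243, 129 and 122 CPM in untreated MM1R and at 99.3, 68.3 and 52.5 CPM with RSL3, and at 201, 214 and 203 CPM and 63.4, 173 and 161 CPM in MM1S. The groups did not overlap within either line, and in each passage the RSL3 library was the lower one. ZNF740 overlaps CSAD and ITGB7 on the other strand.

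ZNF143, which activates promoters of small nuclear RNA and many protein-coding genes, fell by 0.57 ± 0.15 (SE, edgeR FDR = 0.0172). It was at 27.3, 28.9 and 25.4 CPM in untreated MM1R and at 14.8, 20.9 and 17.3 CPM with RSL3, and at 32.8, 26.1 and 26.1 CPM and 11.8, 21.7 and 25.7 CPM in MM1S, where passage 23 was hardly lower. The call was lost without replicate 1 of MM1R with RSL3 (FDR = 0.0520). ZNF865 fell by 0.61 ± 0.11 (FDR = 0.00184), with 23.2 to 29.1 CPM untreated and 11.6 to 21.3 CPM with RSL3 over both lines. ZNF692 fell by 0.49 ± 0.10 (FDR = 0.00426), and ZNF232, a SCAN domain protein, by 0.63 ± 0.12 (FDR = 0.00225).

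ZNF598, the sensor of collided ribosomes, was among the most even of the falls. It was at 116, 109 and 112 CPM in untreated MM1R and at 76.0, 75.7 and 82.3 CPM with RSL3, and at 106, 120 and 111 CPM and 86.4, 91.5 and 88.9 CPM in MM1S. No groups overlapped and the log2 fold change was -0.43 ± 0.07 (SE, edgeR FDR = 6.52e-04). With both agents it was at 79.9, 71.7 and 79.8 CPM in MM1R and at 77.3, 98.4 and 89.9 CPM in MM1S. The 3 KRAB-matched genes that fell were ZNF74 (-0.57, FDR = 0.00773), which lies in the 22q11.2 deletion region, ZNF862 (-0.51, FDR = 0.0476, lost in 12 of the 18 fits without 1 library) and ZNF316 (-0.38, FDR = 0.0341, lost in 7).

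By role, 24 of the 125 genes stood on a list of chromatin and promoter factors. Of these 1 rose (ZNF644) and 4 fell (ZNF703, ZNF143, ZNF639 and ZNF281), with a median log2 fold change of -0.03. Over all tested genes 8.7% were called higher and 6.81% lower, and the role counts were not tested against these shares. ZNF639 fell by 0.26 ± 0.08 (SE) and ZNF281, a regulator of stemness and epithelial-mesenchymal transition, by 0.28 ± 0.09. Of 13 genes listed for RNA, ribosomes or the spindle 1 rose (ZNF622) and 4 fell, with a median of -0.10. The falls included ZNF598, ZNF318 (-0.42, FDR = 0.0233), which in B cells controls the choice between IgM and IgD transcripts, and ZNF207 (-0.32, FDR = 0.0329), with ZNF830 (-0.33, FDR = 0.0329) as the fourth. Without 1 library at a time, the call was lost in 10 of the 18 fits for ZNF281, 8 for ZNF207, 7 for ZNF639, 6 for ZNF830 and 4 for ZNF318. Of 7 genes on a list of SCAN domain genes 1 rose (ZNF496) and 1 fell (ZNF232). On that list ZNF394 had a log2 fold change of 0.52 that did not pass (FDR = 0.0532). The list need not hold every SCAN gene of the 125, and ZNF215, which rose, was not counted on it.

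Partners of KRAB proteins were measured beside them. Of 14 genes of the KRAB corepressor machinery that were tested, 13 had a log2 fold change below 0 after RSL3 with a median of -0.23, and 3 were called, all lower, where 8.7% of all genes were called higher and 6.81% lower. These were CHD4 (-0.44 ± 0.08 SE, FDR = 0.00186), the NuRD remodeler, CBX5 (-0.47 ± 0.10, FDR = 0.00649), which encodes HP1 alpha, and HDAC2 (-0.30 ± 0.10, FDR = 0.0424), whose call was lost in 11 of the 18 fits without 1 library. TRIM28 itself had a log2 fold change of -0.14 ± 0.09 and SETDB1 of -0.17 ± 0.09, and neither passed. ATF7IP, the partner of SETDB1, was the 1 gene above 0, at 0.32 ± 0.11 (FDR = 0.0537).

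Within single passages the same split was seen at uneven size. The median log2 difference between the RSL3 and the untreated library of a passage was 0.02, 0.09 and 0.11 in MM1R (passages 4, 6 and 7) and -0.07, 0.07 and 0.09 in MM1S (passages 16, 22 and 23) for the KRAB-matched genes. For the genes without a match it was -0.16, -0.02 and -0.03 in MM1R and -0.22, -0.04 and -0.05 in MM1S. The KRAB-matched genes were thus the higher class in all 6 passages, and replicate 1 of each line gave the lowest medians. The RSL3 library of passage 16 also had the lowest TMM scaling factor, 0.864 in a range of 0.864 to 1.06, and its part in the result was not tested. Without it the averaged calls were 12 higher and 1 lower for the KRAB-matched genes and 4 higher and 8 lower for the others. The share of all tested genes called in that fit is not given here, so these counts stand without a background. Of the 125 genes 23 were higher with RSL3 in all 6 passages, 15 of them KRAB-matched, against 13.8% of all tested genes, and 25 were lower in all 6, 3 of them KRAB-matched, against 14.8%.

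**Figure D2:**
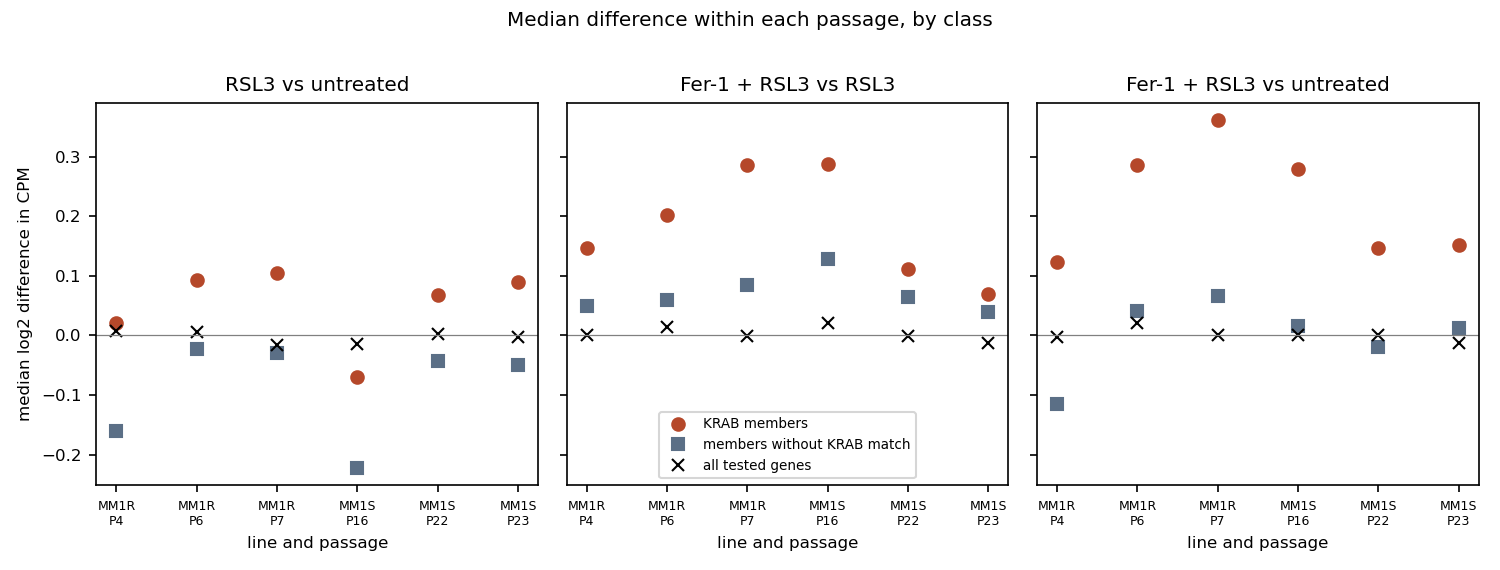
Median log2 difference in CPM (vertical axis) between libraries of the same passage, for 51 KRAB-matched genes (circles), 74 genes without a match (squares) and all 14281 tested genes (crosses), in 3 comparisons and 6 passages (horizontal axis). The KRAB-matched genes had the higher median of the 2 classes in every passage of every comparison, and the medians of all genes stayed near 0.

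The values of both lines were close across these genes. Over the 125 genes the log2 fold changes of MM1R and MM1S, which share no library, had a Pearson r of 0.865 and a Spearman rho of 0.808, and 94 of 125 had the same sign in both. Over all 14281 tested genes r was 0.765. These values describe genes, not replicates, and the genes of a library share its depth and base composition. For the difference between the lines in the RSL3 response, 0 of the 125 genes were called by edgeR or by DESeq2, with 0 genes at an unadjusted p under 0.05 against 222 of all tested genes. The smallest p-values were those of ZNF41 (0.41 ± 0.11 SE in MM1R and 0.08 ± 0.11 in MM1S) and ZNF692 (-0.69 ± 0.14 and -0.28 ± 0.14).

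**Figure D3:**
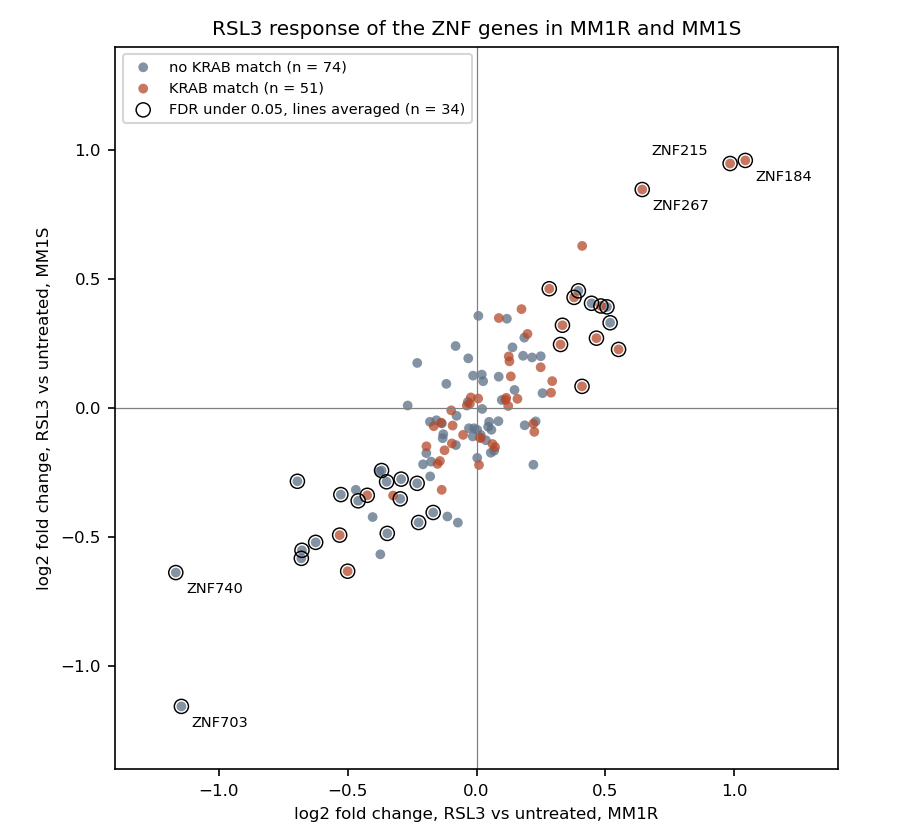
Log2 fold change of RSL3 against untreated cells in MM1R (horizontal axis) and MM1S (vertical axis) for 125 genes, red with and gray without a KRAB match, with black rings for the 34 genes called in the average of both lines. ZNF184, ZNF215 and ZNF267 lie at the upper right and ZNF703 and ZNF740 at the lower left.

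Fer-1 before RSL3 was compared with RSL3 alone, which uses none of the untreated libraries behind the threshold. None of the 125 genes was called by edgeR in MM1R, in MM1S or in their average, where 17 of all tested genes were (0.119%). At an unadjusted p under 0.05 there were 25, 15 and 35 of the 125 genes, against 6.17%, 5.75% and 12.8% of all tested genes. DESeq2 called 6 in the average, a count without a background, since the share of all genes that DESeq2 called is not given here. With the passage as a block 5 were called: the KRAB genes ZNF227, ZNF445, ZNF45 and ZNF92 higher, and ZNF710 lower. In that block fit 2.37% of all genes were called (1.15% higher and 1.22% lower). The genes leaned upward together: 95 of 125 had a positive log2 fold change in the average, against 50.4% of all tested genes. The median was 0.16 for the KRAB-matched genes (44 of 51 above 0) and 0.08 for the others (51 of 74), while that of all tested genes was 0.00. Of the 125 genes 31 were higher in all 6 passages, against 8.05% of all genes, and 4 were lower in all 6, against 6.56%. Without the MM1R library that goes against its label, 0 of the 125 genes were called in MM1R or in the average. In MM1R 9 of the 125 then had an unadjusted p under 0.05, beside 514 of 14646 tested genes. In the average 30 did, beside 1493 of 14646. In that average 100 of 125 lay above 0 and the medians were 0.17 and 0.08. In the 5 remaining passages 41 genes were higher against 11% of all genes, and 6 were lower against 10.2%.

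ZNF227 (hg19 chr19:44711700-44741421), an 18-finger gene of the chromosome 19 KRAB clusters that overlaps ZNF235 on the other strand, had the smallest p of this comparison. It was at 25.4, 25.2 and 24.3 CPM with RSL3 and at 29.2, 34.1 and 41.3 CPM with Fer-1 and RSL3 in MM1R, and at 19.5, 26.6 and 30.5 CPM and 45.5, 36.2 and 39.4 CPM in MM1S. The groups did not overlap, and the log2 difference was 0.57 ± 0.12 (SE, edgeR FDR = 0.0552, or 0.0259 with the passage as a block, and 0.121 without the library that goes against its label). Untreated cells had 15.6 to 19.2 CPM in MM1R and 19.7 to 25.1 CPM in MM1S, so the 3 states were ordered in MM1R, while untreated and RSL3 libraries overlapped in MM1S.

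ZNF445 (hg19 chr3:44473197-44519162), a KRAB protein known to keep imprinting marks, did not pass the threshold for both agents against RSL3 alone with all libraries, but passed with the block and, like ZNF227, without replicate 3 of MM1S with RSL3 (FDR = 0.0196). It was at 14.8 to 17.4 CPM untreated, 15.8 to 16.8 CPM with RSL3 and 21.6 to 27.5 CPM with both agents in MM1R. In MM1S it was at 15.7 to 20.2 CPM, 10.7 to 19.3 CPM and 20.9 to 25.4 CPM. The log2 difference to RSL3 alone was 0.57 ± 0.12 (SE, edgeR FDR = 0.0655, or 0.0343 with the block and 0.121 without the library that goes against its label), and that of RSL3 to untreated cells was -0.11 ± 0.12. ZNF710 was the reverse, at 50.8, 39.3 and 57.2 CPM with RSL3 and 32.2, 25.6 and 25.9 CPM with both agents in MM1R, and at 36.9, 28.5 and 27.0 CPM and 28.3, 25.1 and 21.4 CPM in MM1S. Its log2 difference was -0.56 ± 0.12 (FDR = 0.0616, or 0.00577 with the block), and without 1 library at a time its FDR lay between 0.0256 and 0.170, passing in 3 of the 18 fits. ZNF703 was lower still with Fer-1, at 5.57 to 6.93 CPM in MM1R and 4.10 to 5.90 CPM in MM1S, with a log2 difference of -0.48 ± 0.14 that did not pass (FDR = 0.189).

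Cells given both agents were also compared with untreated cells. In MM1R 21 were called (15 higher and 6 lower, against 9.22% of all genes, 5.57% higher and 3.66% lower), in MM1S 13 (11 and 2, against 4.61%, 2.6% higher and 2.02% lower), and in the average 47 (33 and 14), against 19% of all tested genes (10.5% higher and 8.47% lower). With the passage as a block the counts were 43 (22.2% of all genes), 25 (14.7%) and 67 (33.3%). Without the library that goes against its label 13 were called in MM1R (4.65% of all genes) and 34 in the average (16.2%). The MM1R count was also 12 or 13 without replicate 3 of MM1R with both agents or replicate 2 or 3 of untreated MM1R, and 35 without replicate 1 of MM1S with RSL3. The MM1S count was 4 to 8 without any of the 6 MM1S libraries compared. This comparison and that of RSL3 share the untreated libraries, so their values stand side by side without a test of one against the other. Of the KRAB-matched genes 21 rose and 1 fell, and of the others 12 rose and 13 fell, with medians of 0.25 and 0.01. Without the MM1R library that goes against its label the KRAB-matched counts were 15 and 0 and the others 9 and 10. Of all tested genes 8.92% were then called higher and 7.26% lower. The class medians were 0.23 and 0.00. In all 6 passages 44 of the 125 genes were higher, 27 of them KRAB-matched, against 17.1% of all genes, and 26 were lower, 4 of them KRAB-matched, against 16%. In the 5 passages without that library the counts were 45 (19.4% of all genes) and 27 (19.1%).

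The KRAB genes with the largest differences from untreated cells were ZNF184 (1.04 ± 0.17 SE, edgeR FDR = 4.73e-04), ZNF227 (0.96 ± 0.12, FDR = 4.55e-05), ZNF92 (0.75 ± 0.11, FDR = 1.89e-04) and ZNF621 (0.66 ± 0.11, FDR = 8.09e-04), named after their values were seen. ZNF92 was at 21.6, 22.9 and 23.6 CPM untreated, 29.1, 31.6 and 33.4 CPM with RSL3 and 33.9, 47.8 and 49.4 CPM with both agents in MM1R, and at 29.8, 32.1 and 39.5, then 36.9, 40.3 and 45.1, then 45.7, 44.7 and 59.6 CPM in MM1S. The 3 states of ZNF92 were ordered in every passage, but its 47.8 CPM is from the MM1R library that goes against its label. Without that library its log2 difference to untreated cells was 0.72 ± 0.12 (SE, edgeR FDR = 7.78e-04). To RSL3 alone it was then 0.35 ± 0.12 and did not pass (FDR = 0.300). ZNF410, which is known to activate CHD4, had 0.31 ± 0.08 (FDR = 0.00974). ZNF703 was the largest fall (-1.63 ± 0.14, FDR = 4.20e-06). ZNF296, also named after its values were seen, came next at -0.86 ± 0.15 (FDR = 8.93e-04), from 44.1, 44.1 and 52.2 CPM to 29.4, 26.2 and 21.5 CPM in MM1R and from 39.1, 33.3 and 35.2 CPM to 14.2, 24.3 and 21.2 CPM in MM1S. In MM1R the groups did not overlap, and neither did they in MM1S.

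**Figure D4:**
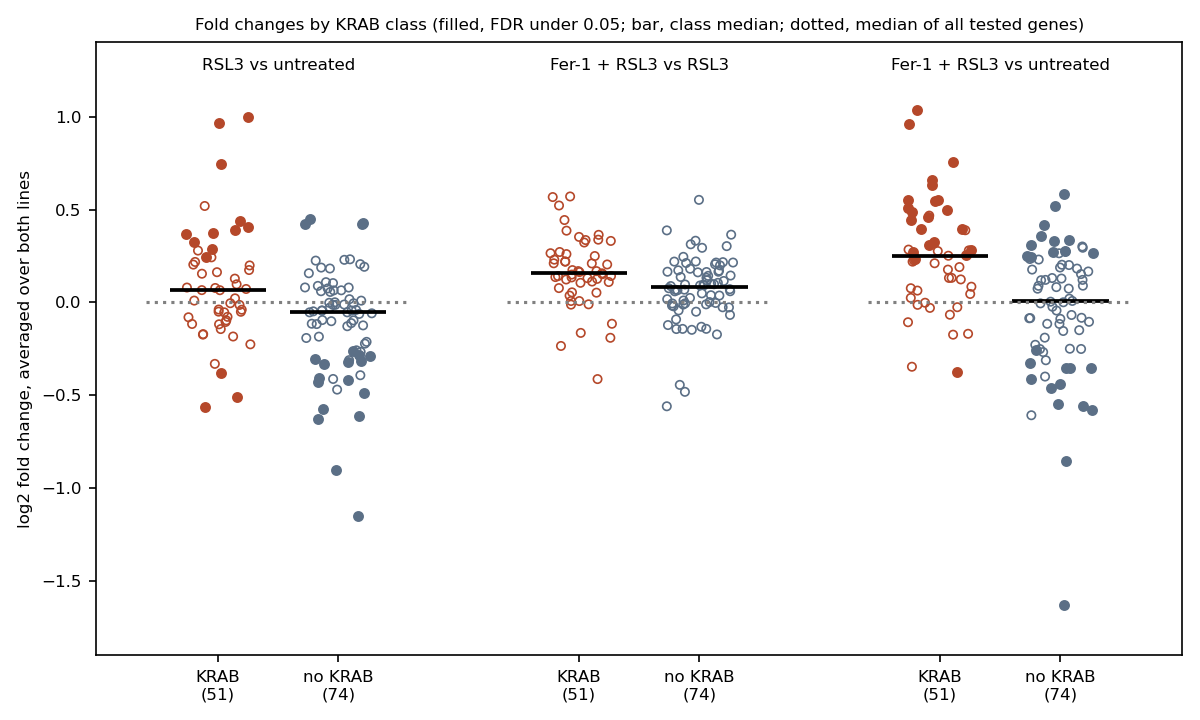
Log2 fold change averaged over both lines (vertical axis) for each KRAB-matched gene (red, n = 51) and each gene without a match (gray, n = 74) in 3 comparisons, with filled points at an FDR under 0.05, black bars for class medians and dotted lines for the median of all tested genes. The KRAB-matched median was 0.07, 0.16 and 0.25 from left to right, and that of the other genes was -0.05, 0.08 and 0.01.

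Base composition moved with these differences. Across the 125 genes the log2 fold change and the GC content of the transcript had a Spearman rho of -0.37 for RSL3 against untreated cells, -0.28 for Fer-1 and RSL3 against RSL3, and -0.48 for Fer-1 and RSL3 against untreated cells, against -0.15, -0.16 and -0.24 over 12732 tested genes with a known sequence. Within the KRAB-matched genes alone the values were -0.38, -0.14 and -0.46. In a fit with offsets for GC content and length, 10 KRAB-matched genes rose and 3 fell with RSL3. With both agents against untreated cells 14 rose and 0 fell. For the others the counts were 4 and 12 with RSL3, and 8 and 11 with both agents. The shares of all tested genes called in that fit are not given here, so these counts stand without a background. The medians of both agents against untreated cells were then 0.18 for the KRAB-matched genes and -0.01 for the others, where all tested genes had -0.04. For RSL3 against untreated cells they were 0.02 and -0.08, and -0.04 for all tested genes. With the offsets 7 of the 34 calls for RSL3 were lost, among them ZNF865 (FDR = 0.0507), ZNF227, ZNF316 and ZNF41, and 21 of the 47 for both agents, among them ZNF445, ZNF410 and ZNF865. The part of base composition in the difference between the classes was not tested.

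ZNF genes below the threshold, which were 252 tested symbols and no members, were measured beside them. Of 194 with a KRAB match 70 were called higher and 1 lower with both agents against untreated cells, with a median of 0.44, and against RSL3 alone 0 were called, 180 of 194 lay above 0 and the median was 0.33. Without the library that goes against its label these were 59 and 1 with a median of 0.41, and 0, 172 and 0.29. Of the 7613 other tested genes over the same threshold 9.92% were called higher and 12.2% lower with both agents, with a median of -0.05.

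The untreated lines were compared next, where the rule used the median of both lines and not their difference. Between untreated MM1R and MM1S, 9 of 125 were called, 5 higher and 4 lower in MM1R, against 10.5% of all tested genes (5.5% higher and 4.99% lower). ZNF721, a KRAB gene with 23 fingers, was at 11.8, 10.4 and 10.0 CPM in MM1R and at 19.8, 24.9 and 28.7 CPM in MM1S (log2 difference -1.19 ± 0.22 SE, edgeR FDR = 0.00264). In the MM1R library that goes against its label it was at 26.9 CPM, beside 11.98 and 17.6 CPM in the other replicates of that group. ZNF217 (-0.61, FDR = 0.00896), ZNF92 (-0.57, FDR = 0.026) and ZNF266 (-0.46, FDR = 0.00506) were also lower in MM1R. ZNF263, a KRAB and SCAN protein, was higher there, at 59.0, 54.3 and 53.4 CPM against 31.0, 36.2 and 33.8 CPM (0.72 ± 0.11, FDR = 7.41e-04), and it stayed so with each treatment. ZNF358 (0.93, FDR = 0.0122), ZNF74 (0.78, FDR = 0.0117), ZNF580 (0.74, FDR = 0.02) and ZNF316 (0.64, FDR = 0.0195) were higher as well. The call of ZNF92 was lost with the GC and length offsets (FDR = 0.0645) and in 5 of the 18 fits without 1 library, that of ZNF580 in 4, of ZNF316 in 3 and of ZNF358 and ZNF74 in 2 each. The count was 4 without replicate 3 of untreated MM1S and 5 without replicate 2.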

How the data were processed

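RNA was sequenced in 18 libraries, 3 for each of 6 groups. The authors checked reads with FastQC 0.11.5, aligned them to hg19 with STAR 2.7.3a and deposited a table of raw counts on 43735 genes. The counting tool, annotation and strand setting are not given in the sources used here, and 44 of the 125 genes overlap another annotated gene (35 on the other strand). A deposited normalized table, each count divided by a constant of its library, was not used. Counts were filtered with filterByExpr (minimum 10), which kept 14281 genes with all 125 members, scaled by TMM and fitted in edgeR 4.0.16 (R 4.3.3, limma 3.58.1) as 6 group means with 12 residual degrees of freedom. A gene was called at an FDR under 0.05. CPM use the TMM-scaled library size, and differences within a passage are of log2(CPM + 0.5). DESeq2 1.42.0 was an alternative.

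The members, gene lists and classes were chosen with earlier results of these data known. Named genes were the 8 largest rises and 8 largest falls called for RSL3 in the average, the 2 smallest FDR in each direction per line, the 2 smallest p either way for both agents against RSL3, the 4 smallest FDR in each direction between untreated lines, the 2 smallest p of the interaction, the 5 most abundant, 3 on each side of the threshold, and up to 4 per list. KRAB domains were scored in annotated proteins with a 36-residue profile built from 270 strict matches (at least 20 bits). Gene positions, lengths and GC content are from GENCODE on hg19 and were known for 89.2% of tested genes. Promoters are from RefSeq.

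The labels give passages, which pair the libraries within a line: same-passage deviations from their groups correlated at a median r of 0.250 in MM1R (0.0338 to 0.516, 9 pairs) and 0.416 in MM1S (0.216 to 0.681, 9 pairs). Blocking on passage leaves 8 degrees of freedom and cannot give the difference between untreated lines. P-values of the main fit rest on the spread between passages within the 6 groups, pooled over both lines and all treatments, with 1 culture line of each kind. In simulated data the steps recovered 82% of 200 genes changed 1.5-fold in the averaged comparison of RSL3 with untreated cells, 27.5% in MM1R and 9% in MM1S.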

Additional observations from a re-analysis of the deposited data

How the results depend on the processing

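The direction of every named gene was kept in all alternatives run. Counts of called genes moved by more than 1.5 times in these cases. For RSL3 against untreated MM1R (9), DESeq2 gave 15, the passage block 23, GC and length offsets with the block 19 and a threshold of 500 counts 5. For MM1S (6) these gave 14, 21, 25 and 3, and a fit of only the groups compared gave 0. For the average (34) the block gave 52. For Fer-1 and RSL3 against RSL3 (0), MM1R gave 1 with DESeq2, 2 with no filter, 1 with the block and 1 with offsets and block, MM1S gave 2 with no filter, and the average gave 6 with DESeq2, 9 with no filter, 5 with the block, 1 with offsets and 7 with offsets and block. For Fer-1 and RSL3 against untreated MM1R (21) the block gave 43, offsets 10 and the threshold of 500 gave 11, and for MM1S (13) the block gave 25, offsets with the block 34 and that threshold 7. For their average (47) the threshold of 500 gave 27, and for the untreated lines (9) it gave 4. With no filter on low counts, genes without a KRAB match called with both agents against untreated cells went from 12 higher and 13 lower to 3 and 14. KRAB-matched genes called higher (11 and 21) were 5 and 8 at that threshold, which keeps 76 genes. The cause of these shifts was not tested, except that a higher threshold leaves fewer genes. Without 1 library at a time the counts were 2 to 20 in MM1R, 1 to 10 in MM1S and 19 to 35 in the average for RSL3, 0 to 1, 0 to 0 and 0 to 4 for Fer-1 and RSL3 against RSL3, 12 to 35 in MM1R, 4 to 19 in MM1S and 32 to 57 in the average against untreated cells, 4 to 13 between untreated lines, 0 to 0 for the interaction, and 7 to 12 and 14 to 24 for KRAB-matched genes called higher (7 without replicate 3 of MM1R with RSL3 or replicate 2 of untreated MM1S). For the 38 results on named genes that were called, 611 of the fits without 1 library kept the call and 73 lost it, and for the 9 that were not called 10 fits gained one and 152 did not. The passage block changed no call of a named gene to not called, and gained 5. Of the 34 calls for RSL3, 9 were lost with only the groups compared and 7 with no filter. The offsets, the counts by KRAB class and the alternatives for both agents against untreated cells within 1 line were chosen after seeing the data. Within 1 line, with 3 libraries a group, differences near 1.5-fold were mostly under what could be called.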
